A study of Oryza sativa with 4 samples.

Results

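*OsNAS2* (LOC4332607) and *OsNAS1* (LOC4332608, LOC_Os03g19436) are neighbouring genes on rice chromosome 3, and both encode nicotianamine synthase. They were chosen because their leaf signal was higher in the *hd1-3* mutant than in wild type under short day (SD) condition and lower under long day (LD) condition. They are 2 of the 17905 genes that the platform table gives as the only gene of a probe set. Each has 1 of the 57194 probe sets (groups of short probes for 1 transcript) left after control probe sets were removed. *hd1-3* has no working copy of *Hd1*, a flowering time gene that is altered there by insertions and deletions, and its flowering does not follow day length. The arrays served to find transcripts that differ without *Hd1*. Leaves of 35-day-old plants were hybridized to 4 Affymetrix Rice Genome Arrays, 1 for each of *hd1-3* under SD, wild type Zhonghua11 under SD, *hd1-3* under LD and wild type Zhonghua11 under LD. Plants grew in climate chambers at 28 °C with 11.5 h light and 12.5 h dark for SD, or 15 h light and 9 h dark for LD. The leaves were taken 3 h after light came on under SD and 5 h under LD, so day length and hour of sampling cannot be told apart. The sources used here do not say how many plants gave each RNA.

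Nicotianamine synthase joins molecules of S-adenosylmethionine into nicotianamine, a small chelator that keeps iron, zinc and copper soluble inside the plant and in the phloem. In grasses nicotianamine is also the precursor of deoxymugineic acid, the phytosiderophore that roots secrete to take up ferric iron. Rice has a small family of these genes. *OsNAS1* and *OsNAS2* are known as genes that iron deficiency induces in roots and leaves, whereas *OsNAS3*, on chromosome 7, is known to respond differently in leaves.

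Each value is a MAS 5.0 signal, a linear intensity scaled alike on all arrays, with medians between 63.7 and 69.7 on the 4 arrays. The number of arrays limits the precision: with 1 array per group, no fold has a replicate check and no p-value is given. *Hd1*, the mutated gene, had signals of 60.5 in *hd1-3* and 142 in wild type under SD, and of 5.4 in *hd1-3* and 89.3 in wild type under LD. It was lower in *hd1-3* under both, although only the wild type signal under SD exceeded 100, and dim signals are noisy on this array. All 5 leaf markers read (3 genes of chlorophyll-binding proteins, Rubisco activase *RCA* and Rubisco small subunit *RBCS*) had signals between 28570 and 54000 and differed by at most 0.19 on the log2 scale between *hd1-3* and wild type. Of the measured root markers, *OsPT2* reached 100 on no array. Its signal was 88.7 in *hd1-3* and 93.2 in wild type under SD, and 22 in *hd1-3* and 38.2 in wild type under LD. The summed signal of both root markers was 1053 in *hd1-3* and 796 in wild type under SD, and 569 in *hd1-3* and 619 in wild type under LD. Most of it came from the silicon transporter gene *OsLsi1*. The root marker sum was highest on the array where the pair was highest, and its part in the result was not tested. The 3′ over 5′ signal of a GAPDH control, a sign of RNA quality, was 4.16 in *hd1-3* and 1.64 in wild type under SD, and 4.25 in *hd1-3* and 1.48 in wild type under LD. It was higher in *hd1-3* under both day lengths, and its part in the result was not tested. The same ratio for actin was 3.75 in *hd1-3* and 4.46 in wild type under SD. Under LD it was 2.92 in *hd1-3* and 3.62 in wild type. For cyclophilin it was 1.69 in *hd1-3* and 1.42 in wild type under SD, and 1.67 and 1.59 under LD. For ubiquitin it was 0.633 in *hd1-3* and 0.718 in wild type under SD, and 0.658 and 0.627 under LD. In leaf RNA, a change in the number of cells that express a gene and a change in RNA per cell cannot be told apart.

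*OsNAS2* had a signal of 2009 in *hd1-3* against 181 in wild type under SD, and of 127 in *hd1-3* against 1144 in wild type under LD. The signal was thus high in *hd1-3* under SD and in wild type under LD, and low on the other 2 arrays. *OsNAS2* was 11.1-fold higher in *hd1-3* under SD, a log2 fold of 3.47, and 8.94-fold lower under LD, a log2 fold of -3.16.
*OsNAS1* had a signal of 2839 in *hd1-3* against 149 in wild type under SD, and of 166 in *hd1-3* against 959 in wild type under LD. The same 2 arrays were high and the same 2 were low. *OsNAS1* was 18.9-fold higher in *hd1-3* under SD, a log2 fold of 4.24, and 5.76-fold lower under LD, a log2 fold of -2.53. All 8 signals of the pair were above 100.

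**Figure D1:**
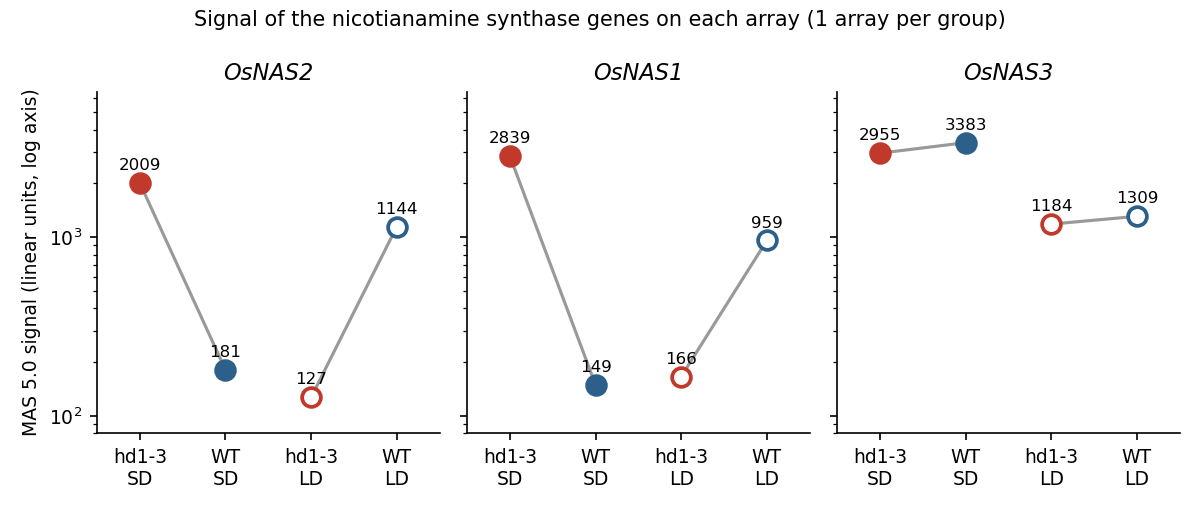
Signal of *OsNAS2*, *OsNAS1* and *OsNAS3* on each array, in linear MAS 5.0 units on a log axis (red, *hd1-3*; blue, wild type; filled, SD; open, LD; each point is 1 array, and lines join the arrays of a day length). *OsNAS2* and *OsNAS1* were high in *hd1-3* under SD (2009 and 2839) and in wild type under LD (1144 and 959), while *OsNAS3* differed little between the genotypes.

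For both genes the order of the levels began with *hd1-3* under SD and wild type under LD. The highest signal was 1.76-fold above the next for *OsNAS2* and 2.96-fold for *OsNAS1*. The lower of the 2 high signals was still 6.34-fold above the higher of the 2 low ones for *OsNAS2* and 5.79-fold for *OsNAS1*. The 2 low arrays lay close together. The higher of them exceeded the lower 1.42-fold for *OsNAS2*, which was lowest in *hd1-3* under LD, and 1.11-fold for *OsNAS1*, which was lowest in wild type under SD. No array was repeated, so the error of these low signals is unknown and their order cannot be told.
Set out by genotype, the pair changed in opposite directions between the day lengths. In *hd1-3* the signal under SD exceeded that under LD 15.7-fold for *OsNAS2* and 17.1-fold for *OsNAS1*. In wild type it was the LD signal that was higher, 6.31-fold for *OsNAS2* and 6.39-fold for *OsNAS1*. A signal of 100 was reached by at least 1 array of each day length for 24119 probe sets, called bright here. Of these bright probe sets, 4.57% were above 2-fold higher and 5.88% above 2-fold lower under SD than under LD in *hd1-3*. In wild type these shares were 4.24% and 6.18%.

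The pair was chosen by these folds, so the shares of all probe sets beside them are background and no test of the pair. Over all 57194 probe sets, 3.28% were above 2-fold higher in *hd1-3* under SD and above 2-fold lower under LD, and 2.85% switched the other way. Of the 24119 bright probe sets, 3.65% were above 2-fold higher in *hd1-3* under SD and 3.49% above 2-fold lower under LD. Both together held for 76 probe sets, or 0.315%, and the opposite switch, lower under SD and higher under LD, for 29, or 0.120%. With 500 as the minimum in place of 100, 13076 probe sets were left. Above 2-fold, 1.56% of them were higher and 1.53% lower in *hd1-3* under SD, and 1.27% were higher and 1.22% lower under LD. The switch of the pair was seen for 6 of the 13076, or 0.0459%, the 2 of the pair included, and the opposite switch for 2, or 0.0153%. Of these 6, only *OsNAS2* and *OsNAS1* were above 5-fold under both day lengths. At 100 or more, 9 probe sets passed 5-fold in this way, and the other 7 have no gene in the platform table. The brightest of the 7 had signals of 398 in *hd1-3* and 47.2 in wild type under SD, and of 45.1 in *hd1-3* and 539 in wild type under LD. On the remaining 6 no signal exceeded 155. The opposite switch passed 5-fold for 3 probe sets at 100 or more and for 0 at 500 or more.
Folds of probe sets with a mean signal like that of the pair, 865 for *OsNAS2* and 1028 for *OsNAS1*, were mostly small. For the 8260 probe sets with a mean signal from 500 to under 2000, the middle 95% of the SD log2 folds lay between -0.82 and 0.85, and that of the LD log2 folds between -0.74 and 0.80. Among them, 18 had an SD fold as high as that of *OsNAS1* and 29 as high as that of *OsNAS2*, both counts including the pair. Under LD, 26 fell as low as *OsNAS2* and 30 as low as *OsNAS1*. A fold of this size under a single day length was thus not particular to the pair. The mean signals of the pair rest on the high arrays that served to choose it, and its low signals were between 127 and 181. The middle 95% of this set thus does not give the spread of folds that rest on such low signals.

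**Figure D2:**
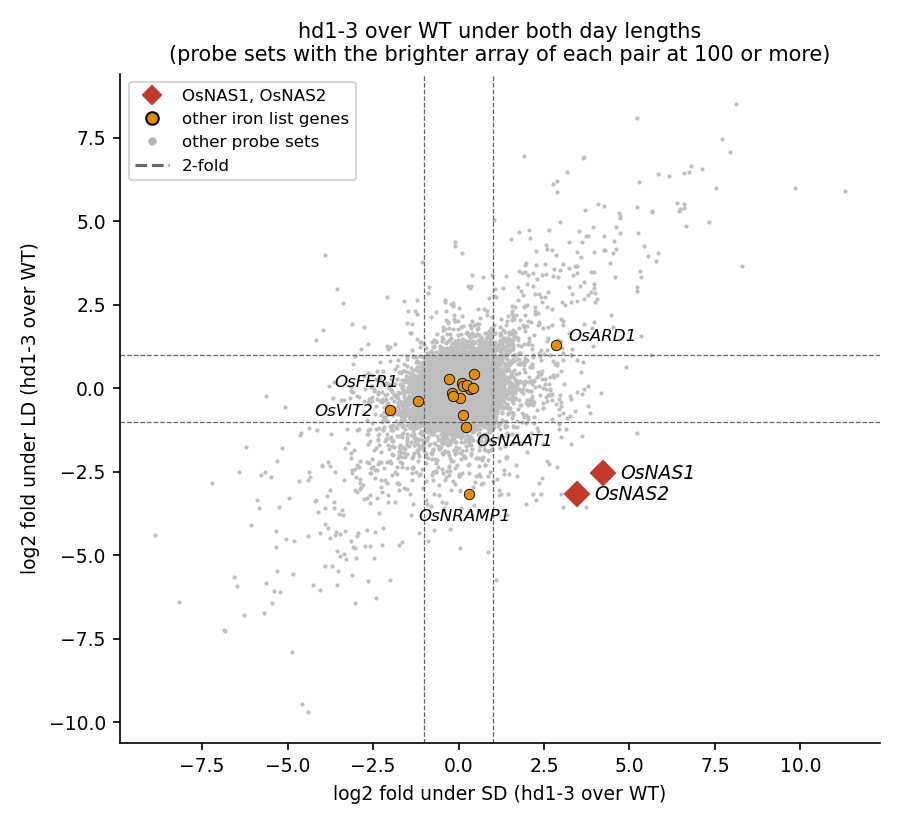
Log2 fold of *hd1-3* over wild type under SD (x axis) and LD (y axis) for the 24119 bright probe sets. *OsNAS1* and *OsNAS2* (red diamonds) lie at 4.24 and -2.53 and at 3.47 and -3.16, beyond the 2-fold lines in a corner that holds 0.315% of these probe sets, and the other measured nicotianamine and iron genes that passed this filter are in orange.

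The log2 folds of the pair were not identical on these arrays. That of *OsNAS1* exceeded that of *OsNAS2* by 0.77 under SD and by 0.63 under LD. The measured rise under SD was thus larger for *OsNAS1* and the measured fall under LD larger for *OsNAS2*. No array was repeated, so whether the 2 genes differ in this cannot be told. Over the 4 arrays their log2 signals had a Pearson r of 0.980, a description over 4 points that share the arrays used to choose the pair. *OsNAS1* and *OsNAS2* are closely similar in sequence. The array has a separate probe set for each, and how far each of them also reads the other gene was not tested.
*OsNAS3*, the other member of the family, gave a different picture. Its signal was 2955 in *hd1-3* and 3383 in wild type under SD, and 1184 in *hd1-3* and 1309 in wild type under LD. It was higher under SD in both genotypes, and its log2 folds between *hd1-3* and wild type, -0.20 under SD and -0.14 under LD, were small beside those of the pair.

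The genes around *OsNAS2* and *OsNAS1* on chromosome 3 were measured to see whether the pattern extended beyond the pair. Of the 20 nearest genes with a probe set, 10 on each side, 19 were within 2-fold under both day lengths, with a median log2 fold of 0.09 under SD and of -0.05 under LD. Within 2-fold under both were also 56.9% of all probe sets and 89.3% of the bright ones, to which 18 of the 20 belong, so the neighbours were close to the background. The medians over all probe sets were -0.01 and -0.05. LOC4332606, the gene next to *OsNAS2*, had signals of 3987 in *hd1-3* and 3688 in wild type under SD, and 5899 in *hd1-3* and 6320 in wild type under LD. LOC4332609, the nearest measured gene beyond *OsNAS1*, had log2 folds of 0.12 and -0.28. A few genes further on lies *SDG718* (LOC4332612), a histone H3K27 methyltransferase gene that had -0.29 and -0.10. The phytochrome B gene *PHYB* (LOC4332623), a red light receptor gene at the far end of the set, had -0.21 and -0.25. LOC4332602 leaned in the direction of the pair without passing 2-fold (0.86 and -0.84), with signals of 124 in *hd1-3* and 68.2 in wild type under SD, and of 67.3 in *hd1-3* and 122 in wild type under LD. The one gene past 2-fold was LOC4332594, at the other end, which had a log2 fold of 1.62 under SD and of -1.50 under LD. Its direction is that of the pair, but none of its 4 signals reached 100, the highest being 45.7.

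**Figure D3:**
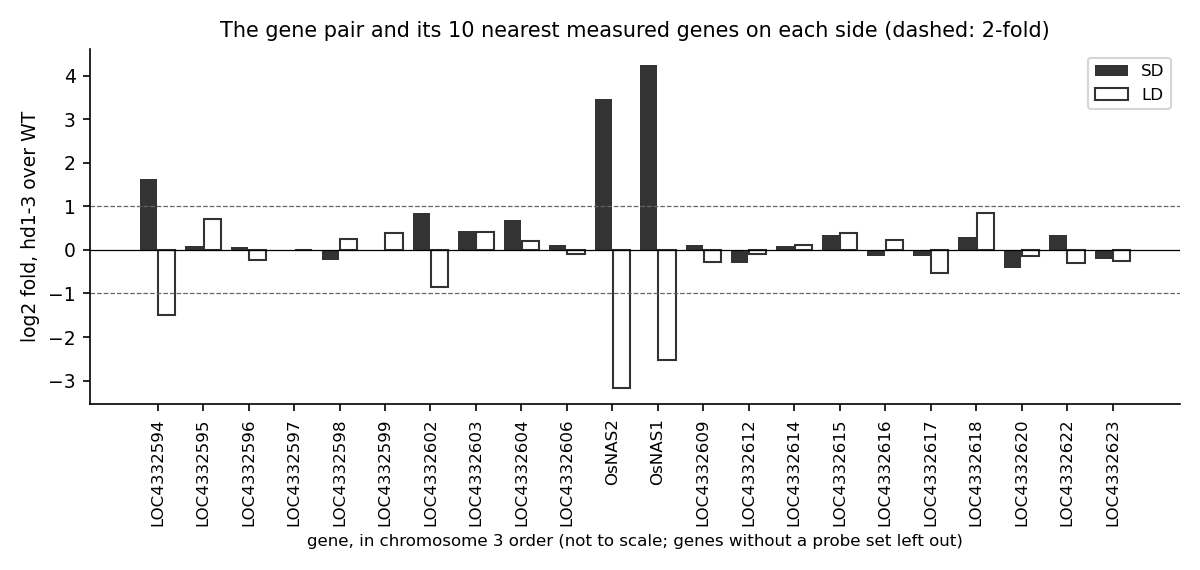
Log2 fold of *hd1-3* over wild type under SD (filled bars) and LD (open bars) for *OsNAS2*, *OsNAS1* and the 10 nearest measured genes on each side, in chromosome 3 order. The neighbours lie within 2-fold (dashed lines) except LOC4332594, whose signals were all below 100.

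A list was drawn up of other genes of nicotianamine and phytosiderophore synthesis, the methionine cycle, iron transport, iron regulation, iron storage and iron-related peptides. Of its 43 genes, 20 could be matched to a probe set. Among the 23 left out, nearly all because no name matched, were *OsDMAS1* (synthesis), *TOM1* and *ENA1* (transport), *OsHRZ1* (regulators) and *OsIMA1* (peptides). The counts thus do not cover the whole pathway. Of the 20 measured genes, 2 were above 2-fold higher and 2 above 2-fold lower in *hd1-3* under SD. Over all 57194 probe sets these shares were 13.9% and 15.1%, or 3.65% and 3.85% where the signals reached 100, as they did for 16 of the 20. Under LD 1 was above 2-fold higher, against 12.3% of all probe sets, and 2 were lower, against 15.5%. Where the signals reached 100, the LD shares were 2.68% and 3.49%. Of the 20, 14 were within 2-fold under both day lengths, against 56.9% of all and 89.3% of the bright probe sets. Only 16 of the 20 are bright, so the bright share is for an unlike set. All the listed genes past 2-fold except *OsYSL15* were bright. None switched direction past 2-fold, and with 0.315% of bright probe sets switching like the pair, a count of 0 in 20 is no result about the list. The median log2 fold of the list was 0.14 under SD and -0.08 under LD, close to the medians over all probe sets.

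**Figure D4:**
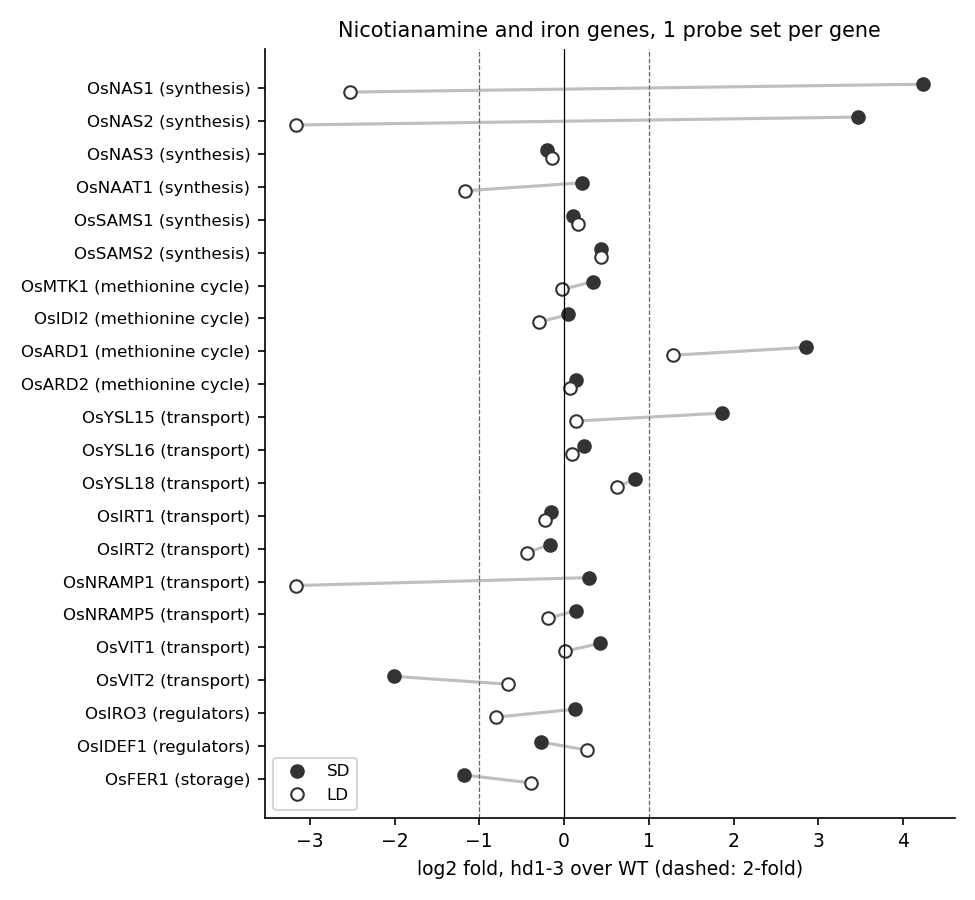
Log2 fold of *hd1-3* over wild type under SD (filled) and LD (open) for the nicotianamine and iron genes, 1 probe set per gene, with the role of each gene in brackets. *OsNAS1* and *OsNAS2* are the genes shown that were higher under SD and lower under LD past 2-fold (dashed lines). *OsNRAMP1* reaches the LD fold of *OsNAS2* but lies within 2-fold under SD.

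Among the synthesis genes, *OsNAAT1* encodes nicotianamine aminotransferase, which acts on nicotianamine on the way to deoxymugineic acid. Its signal was 1743 in *hd1-3* and 1508 in wild type under SD, and 1157 in *hd1-3* and 2606 in wild type under LD. It was highest in wild type under LD and above 2-fold lower in *hd1-3* there (log2 fold -1.17), but within 2-fold under SD (0.21). The S-adenosylmethionine synthetase genes *OsSAMS1* and *OsSAMS2* supply the substrate of nicotianamine synthase. Their brightest probe sets had signals of at least 9062 on every array and log2 folds between 0.10 and 0.44. A second, dim probe set of *OsSAMS2*, with no signal above 70.9, had 0.99 and -0.45.
In the methionine cycle, which recovers the sulfur compound left over by nicotianamine synthesis, *OsMTK1* (methylthioribose kinase), *OsIDI2* and *OsARD2* (acireductone dioxygenase) were within 2-fold under both day lengths. The second probe sets of *OsIDI2* (0.83 and -0.51) and *OsARD2* (-0.40 and 0.07) were also within 2-fold. *OsARD1* was the exception, with log2 folds of 2.86 and 1.28. Its signals were 1269 in *hd1-3* and 174 in wild type under SD, and 1482 in *hd1-3* and 608 in wild type under LD, so it was higher in *hd1-3* under both. Its second probe set had -0.47 and 0.12, and the RefSeq table also gives this gene the names of a heat shock factor, so which transcript the brighter probe set reads is uncertain.

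Among the transporter genes the largest difference was in *OsNRAMP1*, which encodes a metal transporter of the NRAMP family. It had signals of 291 in *hd1-3* and 236 in wild type under SD, and of 190 in *hd1-3* and 1715 in wild type under LD. It shared with the pair the high signal in wild type under LD and a log2 fold there of -3.16, but not the high signal in *hd1-3* under SD (0.30). *OsYSL15*, the transporter of iron bound to deoxymugineic acid, showed the other side of the pattern. Its signal was 168 in *hd1-3* and 45.3 in wild type under SD, and 71.8 in *hd1-3* and 65.1 in wild type under LD. The log2 fold was 1.86 under SD and 0.14 under LD, but 3 of the 4 signals were below 100, and with signals under 100 raised to 100 it was not above 2-fold. *OsIRT1*, a ferrous iron transporter gene, had log2 folds of -0.15 and -0.22, and *OsYSL16* 0.24 and 0.09.
*OsVIT2*, a gene for iron transport into the vacuole, was lower in *hd1-3*. Its signal was 1962 in *hd1-3* and 7882 in wild type under SD, and 3943 in *hd1-3* and 6244 in wild type under LD. The log2 folds were -2.01 and -0.66, and the signal was lowest on the array where the pair was highest. *OsVIT1*, its homolog, was within 2-fold (0.42 and 0.01).
The ferritin gene *OsFER1* (LOC_Os11g01530), whose product stores iron in plastids, had signals of 10679 in *hd1-3* and 24157 in wild type under SD, and of 13109 in *hd1-3* and 17228 in wild type under LD. It was thus also lowest in *hd1-3* under SD, with log2 folds of -1.18 and -0.39. Rice has a second, similar ferritin gene, and the name of this probe set marks it as one that can read several transcripts. Of the regulators, the bHLH gene *OsIRO3*, to which the RefSeq table also gives the name *OsIRO2* of another iron regulator, had 0.13 and -0.80, and *OsIDEF1*, a B3-domain factor of the iron deficiency response, -0.27 and 0.27.

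The remaining genes named YSL, NRAMP and ZIP were added after the data were seen, since YSL proteins carry metals bound to nicotianamine. Of the 24 with a probe set, 3 were above 2-fold higher and 1 lower in *hd1-3* under SD, and 0 were higher and 3 lower under LD. Over all probe sets these shares were 13.9% and 15.1% under SD and 12.3% and 15.5% under LD. They were 3.65% and 3.85%, and 2.68% and 3.49%, for the bright probe sets, to which 17 of the 24 belong, so the counts lie in the range of the background. Their median log2 folds were 0.25 and -0.15. *OsZIP2*, a gene of the zinc and iron transporter family, was the only one to switch in the direction of the pair. It had signals of 290 in *hd1-3* and 144 in wild type under SD, and of 118 in *hd1-3* and 356 in wild type under LD. Its log2 folds of 1.01 and -1.58 were far smaller than those of the pair, and that under SD only just passed 2-fold. *OsYSL12* had 0.52 and -0.96 and was brightest in wild type under LD, at 4240. Its second, dim probe set, with no signal above 22.4, had 2.79 and 3.12. *OsZIP5* was higher under SD (1.64), with a wild type signal below 100. The other genes past 2-fold, *OsYSL4*, *OsYSL7*, *OsYSL10* and *OsYSL11*, had no signal of 100.

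Probe sets whose pattern was most like that of the pair were ranked by Pearson r with its mean log2 signal over the 4 arrays, among 667 others with a brightest signal of 500 or more and a range of at least 2 on the log2 scale. With 4 points from the same arrays, r is a description only. It exceeded 0.9 for 3 of the 667. The closest (r = 0.943) was the unnamed probe set that passed 5-fold under both day lengths, with 398 in *hd1-3* and 47.2 in wild type under SD. LOC4339688 (LOC_Os05g49940, r = 0.929) had signals of 3818 in *hd1-3* and 394 in wild type under SD, and of 692 in *hd1-3* and 1244 in wild type under LD. Its log2 fold was 3.27 under SD, while under LD it was within 2-fold (-0.84). LOC4349200 (r = 0.914) had 525 in *hd1-3* and 7.70 in wild type under SD, and 19.5 in *hd1-3* and 48.3 in wild type under LD, so its LD fold rests on signals below 100.
The other 7 of the 10 closest had r between 0.752 and 0.819. They included *ICL* (LOC4343441), the isocitrate lyase gene of the glyoxylate cycle, with 2.13 under SD and -0.32 under LD, and *OsTIP2;1* (LOC4330207), an aquaporin gene of the vacuole membrane, with 3.46 and -0.11. Of the 10, 9 were above 2-fold higher in *hd1-3* under SD, 3 were above 2-fold lower under LD and 2 passed both. Among all 667 these numbers were 176, 178 and 12. The 10 were picked for their likeness to the pair, so the counts follow in part from that choice.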

How the data were processed

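Leaf RNA was measured on 4 arrays. The values deposited by the authors are linear signal intensities from MAS 5.0, 1 for each of 57381 probe sets on an array. The sources used here name no release of the software, and detection calls were not used. With 2% trimmed at both ends, the mean was 500.1 on all 4 arrays, and the values were used as they stand. After 187 control probe sets were removed, 1 was added to each signal and the log2 ratio of *hd1-3* to wild type was taken within a day length, with 2-fold as threshold and no test, since each group has 1 array. The number of arrays limits the precision.

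Genes were named by the platform table (22436 probe sets with 1 gene), by synonyms in the RefSeq table of assembly ASM3414082v1, used only for names and gene order, and by the study's supplementary gene table. The brightest probe set by mean signal stands for a gene. The members, lists and rules were chosen with earlier results of these data known. Text names the pair, listed genes described by role, the nearest 10 measured genes per side, and the 10 probe sets most alike; the switching probe sets, *OsZIP2* and the other YSL, NRAMP and ZIP genes were singled out later. Alternatives were 32 added, quantile normalization, equal medians of bright probe sets, signals under 100 raised to 100, filters at 100 and 500, and all probe sets per gene. The counting code was checked on simulated bright probe sets with known changes and little noise, which does not test the calls in these data. Python 3.11.15, pandas 2.3.3, numpy 2.4.6, scipy 1.17.1 and matplotlib 3.10.9 were used. Sequences of the genes and probes were not used here.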

Additional observations from a re-analysis of the deposited data

Results flagged for a closer look

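Among the pair, the listed genes and transporter families, the neighbours and the 10 probe sets most like the pair, 6 were above 2-fold higher in *hd1-3* than in wild type under SD and above 2-fold lower under LD. The SD log2 fold minus the LD log2 fold was 6.77 for *OsNAS1*, 6.63 for *OsNAS2*, 7.18 for LOC4349200, 6.60 for the unnamed probe set closest to the pair, 3.12 for LOC4332594 and 2.59 for *OsZIP2*. A switch of this kind past 2-fold was seen for 3.28% of all probe sets and for 0.315% of the bright ones. With 1 array per group the difference between the day lengths was not tested. *OsNAS1* and *OsNAS2* were chosen for it, LOC4349200 and the unnamed probe set were picked for likeness to them, and *OsZIP2* comes from families added after the data were seen. For LOC4332594 all 4 signals were below 100, and for LOC4349200 3 of the 4. The SD log2 fold of *OsZIP2* was 1.01 and only just passed 2-fold.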

How the results depend on the processing

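The folds of the pair kept their direction and stayed above 2-fold under the alternatives run, which were 32 added in place of 1, quantile normalization, equal medians of bright probe sets and signals under 100 raised to 100. The log2 folds ranged from 3.99 to 4.24 (SD) and from -2.53 to -2.33 (LD) for *OsNAS1*, and from 3.26 to 3.47 and from -3.17 to -2.89 for *OsNAS2*. Each gene has 1 probe set, so no second one could be averaged. The counts over all probe sets rest on dim signals. Higher and lower in *hd1-3* under SD, 7926 and 8641 became 2510 and 2577 with 32 added, 508 and 551 with signals under 100 raised to 100, 881 and 929 at 100 or more, and 204 and 200 at 500 or more. Under LD, 7021 and 8851 became 1844 and 2686, 418 and 521, 646 and 841, and 166 and 159 in the same order of settings. Probe sets higher under SD and lower under LD numbered 1875, then 176, 9, 76 and 6, and those lower under SD and higher under LD 1629, then 104, 2, 29 and 2. Raising dim signals to 100 or leaving dim genes out took the listed iron genes higher under SD to 1. The other counts and medians of that list stayed close to the values given. No paired analysis was possible because each group has 1 array. Signals below 100 have no exact fold.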
